A study of Mus musculus with 6 samples.

Results

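The genes described here are 10 feedback regulators and targets of the ERK pathway, measured by bulk RNA sequencing in the mouse retina at PN18. They were taken by symbol: the phosphatases Dusp1, Dusp4, Dusp5 and Dusp6, the signalling inhibitors Spry1, Spry2, Spry4 and Spred1, and the transcription factors Etv4 and Etv5. They are 10 of the 32285 genes in the count table, and all 10 had enough counts to be tested, of 20021 genes that did. None of the 10 was called different between OIR-CIH and OIR-Norm retinas, where 0.315% of all genes tested were. Dusp1 and Dusp4 read higher in every OIR-CIH library than in any OIR-Norm library, and the levels of the other 8 genes overlapped between the groups. Of all genes tested, 18.4% likewise had groups that did not overlap.

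All mice were wild-type C57BL/6J. Every pup went through oxygen-induced retinopathy (OIR), that is 75% O2 from PN8 to PN13, which removes the capillaries of the central retina, and then room air, in which new vessels grow. From PN13 the OIR-CIH group also had chronic intermittent hypoxia (CIH), 266 cycles of 135 s a day over 10 h, in each of which O2 fell from 20.95% to 5% and returned, while the OIR-Norm group had the same gas flow and noise at constant O2. Both groups therefore carry the retinopathy, and neither shows these genes in a retina that was never exposed to hyperoxia. Each group had 3 libraries, which came from 3 eyes per group and were prepared from 250 ng of RNA with a kit that selects mRNA and keeps its strand.

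Growth factors act on receptor tyrosine kinases at the cell surface, and from there Ras, Raf and MEK pass the signal to the kinase ERK. Active ERK induces genes that limit it: Dusp phosphatases remove its activating phosphates, and Sprouty and Spred proteins act upstream at the level of Ras and Raf. The ETS factors of the PEA3 family, among them Etv4 and Etv5, are transcribed downstream of fibroblast growth factor receptors, so that transcripts of all these genes are often read as an output of the pathway. In the retina the pathway is known for its activity in Müller glia after injury and in growing vessels.

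The total count per library lay between 26289905 and 38010151, and the totals of the groups overlapped. Levels are given as CPM, counts of a gene per total of the library after scaling by the trimmed mean of M-values (TMM), which makes libraries comparable. Xist (298 to 1653 CPM) and 4 Y-linked genes (summed, 57.3 to 184 CPM) were both present in every library, so that n counts libraries and the animals behind each are not known. The methods give 3 eyes per group, and how these account for both kinds of RNA in every library is not stated. Where nothing shows that libraries came from separate animals, p-values measure the spread between libraries. As a check of the tissue, 6 markers of bipolar cells, interneurons of the retina, were all detected and summed to 1160 to 1393 CPM. Lens crystallin RNA stood apart in OIR-Norm replicate 2, where 8 lens genes summed to 582 CPM against 90.9 CPM or less in the other 5 libraries. A gene was called where edgeR's quasi-likelihood test gave a Benjamini-Hochberg adjusted p under 0.05 with a log2 fold change above 0.5 or below -0.5, and in all 63 genes were, 43 of them lower in OIR-CIH.

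In that fit 0 of the 10 genes were called, where 0.315% of all genes tested were. DESeq2 and both limma fits also called 0 of the 10. At an unadjusted p under 0.05 the edgeR fit held 2 of the 10, Dusp1 and Dusp4, beside 13.2% of all genes tested, and DESeq2 held 1, Dusp1. The groups did not overlap for the same 2 genes, beside 18.4% of all genes tested, and in 9.12% of all genes it was OIR-CIH that lay above. Of the fitted log2 fold changes, 3 were above 0 and 7 below, with a median of -0.05 where the median of all genes was -0.003. The summed level of the 10 genes was 386 to 420 CPM in OIR-CIH and 371 to 424 CPM in OIR-Norm, so that the range of one group lay within that of the other.

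**Figure D1:**
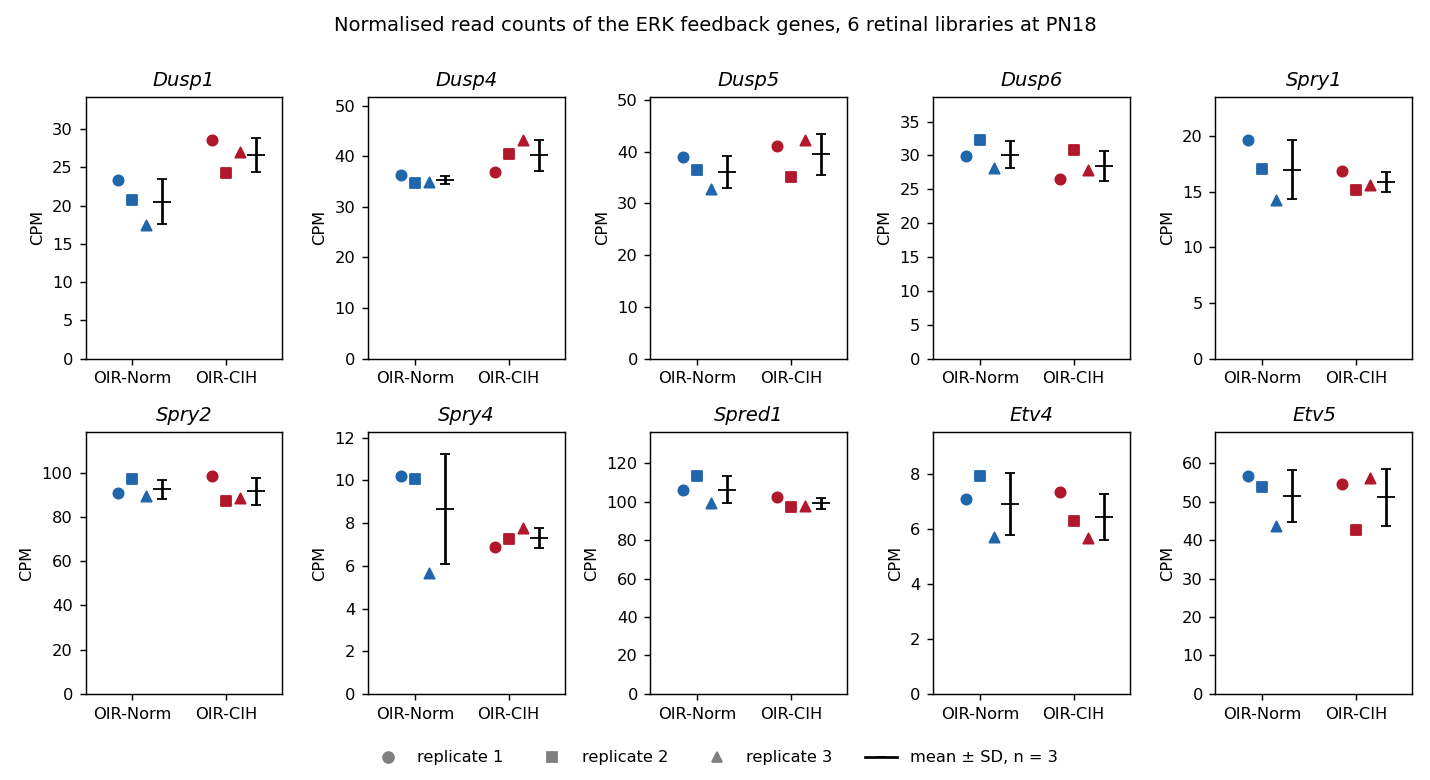
Level of each of the 10 genes in CPM on axes that start at 0, with OIR-Norm in blue and OIR-CIH in red, one point per library and the mean ± SD over 3 libraries beside them. The points of the groups are apart for Dusp1 and Dusp4 and overlap for the other 8 genes, and the lowest OIR-Norm point is the triangle, replicate 3, for 9 of the 10 genes.

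The phosphatases were the group with most values above 0, 3 of 4, beside 9907 of all 20021 genes tested. They held both genes whose libraries did not overlap, which was so for 18.4% of all genes tested. Dusp1, a nuclear phosphatase of ERK, JNK and p38 that is transcribed within minutes of many stimuli, lies at chr17:26505590-26562128 on the minus strand (GRCm38). It read 28.5, 24.2 and 27.0 CPM in OIR-CIH and 23.3, 20.8 and 17.5 CPM in OIR-Norm. The lowest OIR-CIH library was thus just above the highest OIR-Norm library, and the gap between those 2 libraries was smaller than the spread within either group. Its log2 fold change was 0.37 (SE 0.11, 95% interval 0.13 to 0.62), a level 29.6% higher with an interval from 9.09% to 54.0%, and its adjusted p from edgeR was 0.233. An exact two-sided permutation test of its 6 values gave p = 0.1, the smallest that 3 against 3 libraries allow. By p it ranked 552 of the 20021 genes tested. Ergic1, a gene on the opposite strand that overlaps the annotated span of Dusp1, held 2095 to 3912 counts against 557 to 1022 for Dusp1, and how its reads were kept apart is not stated. Ergic1 itself had a log2 fold change of 0.06 (SE 0.09).

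Dusp4, another nuclear ERK phosphatase, lies at chr8:34807297-34819894 on the plus strand. It read 36.9, 40.4 and 43.1 CPM in OIR-CIH and 36.2, 34.6 and 35.0 CPM in OIR-Norm. Every OIR-CIH library was above every OIR-Norm library, although the first OIR-CIH value and the first OIR-Norm value nearly met. The log2 fold change was 0.19 (SE 0.08, interval 0.01 to 0.37), an adjusted p from edgeR of 0.360, and the exact permutation test again gave its minimum of p = 0.1. The 3 OIR-Norm values of Dusp4 had a coefficient of variation of 2.39%, below the 2.94% that counting alone gives at this depth, while the OIR-CIH values had 7.80%.

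Dusp5 encodes a nuclear phosphatase selective for ERK and lies at chr19:53529109-53542431 on the plus strand. Its levels were 41.2, 35.0 and 42.2 CPM in OIR-CIH and 39.0, 36.4 and 32.7 CPM in OIR-Norm, and 2 of the 3 OIR-CIH libraries were above all OIR-Norm libraries. The log2 fold change was 0.13 (SE 0.10, interval -0.08 to 0.34) with an adjusted p from edgeR of 0.598. An antisense transcript over the gene held 33 to 52 counts, few beside the 1010 to 1595 of Dusp5. Dusp6, the cytoplasmic phosphatase of ERK and a much used readout of FGF signalling, lies at chr10:99263231-99267489 on the plus strand. It read 26.5, 30.9 and 27.8 CPM in OIR-CIH and 29.9, 32.2 and 28.2 CPM in OIR-Norm, with interleaved libraries. Its log2 fold change was -0.08 (SE 0.09, interval -0.28 to 0.12) and its adjusted p from edgeR 0.742. The 2 phosphatases with the largest differences, Dusp1 and Dusp4, and the one most tied to FGF signalling, Dusp6, thus had fitted values on opposite sides of 0, and the difference between them was not tested.

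RefSeq gives a promoter for 7 of the 10 genes (8 promoters, GRCm38.p6); Dusp4, Spry4 and Etv4 had no entry. The 250 bases before the start were searched on both strands for CCGGAAG (ETS), TGANTCA (AP-1), TGACGTCA (the cyclic AMP response element), the CArG box (SRF), TTCNNNGAA (STAT) and ACGTG (the core of the hypoxia response element). The promoters of Dusp1, at chr17:26508473-26508722 on the minus strand, and of Dusp5, at chr19:53528895-53529144 on the plus strand, are shown because they were the only ones among the 8 with a TGACGTCA or a CArG box. Capitals mark TGACGTCA and CACGTG, which holds ACGTG on both strands, in Dusp1, and 2 adjoining CArG boxes and CACGT, which is ACGTG on the other strand, in Dusp5.
Dusp1: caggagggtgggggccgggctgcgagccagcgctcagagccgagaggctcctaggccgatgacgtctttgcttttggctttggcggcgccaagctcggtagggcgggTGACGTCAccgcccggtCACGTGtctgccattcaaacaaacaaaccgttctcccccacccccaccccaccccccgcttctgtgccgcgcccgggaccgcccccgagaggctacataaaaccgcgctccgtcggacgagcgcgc
Dusp5: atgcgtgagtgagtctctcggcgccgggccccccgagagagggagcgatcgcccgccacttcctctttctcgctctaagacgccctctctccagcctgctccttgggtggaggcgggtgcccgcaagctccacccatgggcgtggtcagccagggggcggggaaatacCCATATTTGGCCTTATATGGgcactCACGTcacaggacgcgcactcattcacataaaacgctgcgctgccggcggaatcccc
TGACGTCA lay at positions -143 to -136 from the start of Dusp1 and was in 1.55% of the 32851 mouse promoters in the same table. The CArG boxes of Dusp5 lay at positions -82 to -73 and -72 to -63 from its start, and 1.47% of promoters held such a box. ACGTG was in 4 of the 8 promoters, those of Dusp1, Dusp5, Spred1 and Etv5, beside 16.6% of all. The ETS, AP-1 and STAT letters were in 0 of the 8, beside 6.91%, 6.75% and 7.02% of all, which says only that these letters are not in these windows. Of the 4 genes with ACGTG, Dusp1 and Dusp5 had fitted values above 0 and Spred1 and Etv5 below.

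The Sprouty and Spred genes all had fitted values below 0, from -0.24 to -0.02, and none was called. Spry2, which binds Grb2 and Raf and was the Sprouty gene with most counts here, lies at chr14:105891947-105896819 on the minus strand. It read 98.6, 87.1 and 88.7 CPM in OIR-CIH and 90.8, 97.2 and 89.2 CPM in OIR-Norm, and the highest value of all was in OIR-CIH. Its log2 fold change was -0.02 (SE 0.07, interval -0.18 to 0.14; adjusted p from edgeR 0.948), so that the interval ran from 11.5% lower to 10.5% higher. Spry1, at chr3:37639947-37644598 on the plus strand, read 16.9, 15.2 and 15.6 CPM in OIR-CIH and 19.6, 17.1 and 14.3 CPM in OIR-Norm. All 3 OIR-CIH values lay between the lowest and the highest OIR-Norm value. The log2 fold change was -0.10 (SE 0.12, interval -0.37 to 0.17; adjusted p from edgeR 0.779).

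Spry4, at chr18:38586247-38601415 on the minus strand, was the gene that varied most between OIR-Norm libraries. It read 6.87, 7.25 and 7.78 CPM in OIR-CIH and 10.2, 10.1 and 5.69 CPM in OIR-Norm. OIR-Norm replicate 3 lay below all OIR-CIH libraries and the other 2 OIR-Norm libraries lay above them. The coefficient of variation was 29.7% in OIR-Norm and 6.29% in OIR-CIH, where counting alone gives 6.41%. The log2 fold change over all libraries was -0.24 (SE 0.20, interval -0.67 to 0.18; adjusted p from edgeR 0.638), and it depended on single OIR-Norm libraries. It was -0.11 without replicate 1 (adjusted p from edgeR 0.857), -0.12 without replicate 2 (0.911) and -0.47 without replicate 3 (0.170). Spred1, a membrane-anchored inhibitor that brings neurofibromin to Ras, lies at chr2:117121374-117182279 on the plus strand. Its levels were 102.1, 97.3 and 97.7 CPM in OIR-CIH and 106.0, 113.5 and 99.2 CPM in OIR-Norm. One OIR-CIH library stood above the lowest OIR-Norm library, and the other 2 lay below all of them. The log2 fold change was -0.10 (SE 0.07, interval -0.26 to 0.06) with an adjusted p from edgeR of 0.588.

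The PEA3 factors did not separate the groups. Etv4, at chr11:101769742-101785371 on the minus strand, read 7.34, 6.28 and 5.66 CPM in OIR-CIH and 7.08, 7.93 and 5.69 CPM in OIR-Norm. With 181 to 226 counts per library it was measured less precisely than most of the other genes, and its log2 fold change was -0.11 (SE 0.16, interval -0.45 to 0.24; adjusted p from edgeR 0.821). Etv5, at chr16:22381309-22439719 on the minus strand, read 54.7, 42.5 and 56.1 CPM in OIR-CIH and 56.8, 53.9 and 43.7 CPM in OIR-Norm. Each group had 1 library well below its other 2. Its mean was 51.1 ± 7.48 CPM in OIR-CIH and 51.5 ± 6.85 CPM in OIR-Norm (SD, n = 3), and the log2 fold change was -0.01 (SE 0.12, interval -0.26 to 0.24; adjusted p from edgeR 0.983).

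The size of change that these data leave possible differed between the genes. For 8 of the 10 the 95% interval lay wholly within 0.5 on the log2 scale in both directions, which was the minimum for a call. The exceptions were Dusp1, whose interval reached 0.62, and Spry4, whose interval reached -0.67. An adjusted p above the threshold does not show that a gene was equal in both groups.

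**Figure D2:**
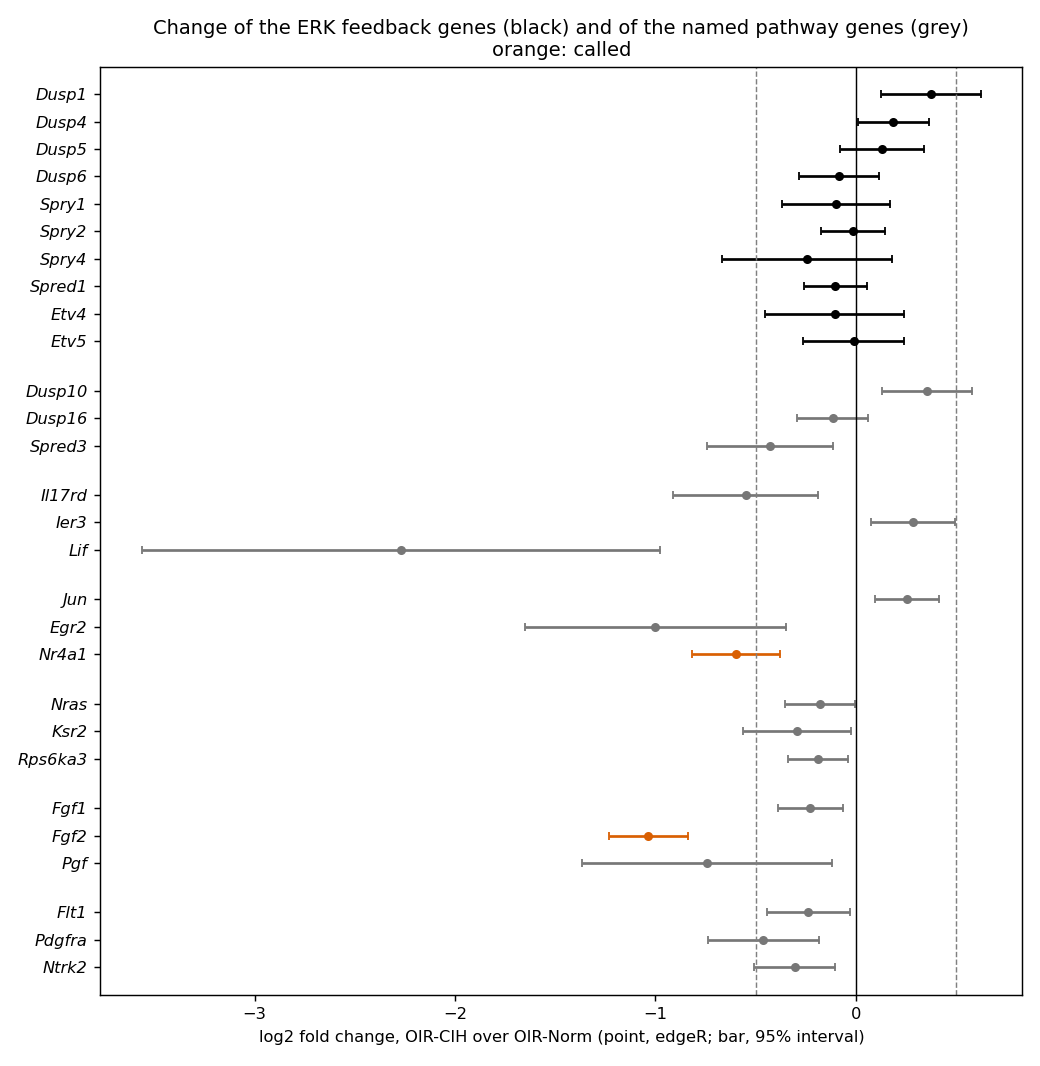
Log2 fold change of OIR-CIH over OIR-Norm from edgeR (points) with 95% intervals (bars) for the 10 feedback genes in black and for 18 other pathway genes below them, with called genes in orange and the minimum for a call as dashed lines at -0.5 and 0.5. The feedback genes lie between -0.24 and 0.37, while Fgf2 lies at -1.03 and Nr4a1 at -0.60.

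Per length of annotated exon, Spry2 was the highest of the 10 at 44.1 CPM per kb over the 6 libraries. Dusp5 (15.3 CPM per kb), Spred1 (15.1), Dusp4 (13.8) and Etv5 (12.5) followed and overlapped each with the next. Dusp6 (9.34 CPM per kb), Dusp1 (7.12) and Spry1 (5.66) came below Etv5, and Dusp6 did not overlap with it. Etv4 (2.15 CPM per kb) and Spry4 (1.68) were lowest, overlapped each other and lay below Spry1 in every library. Spry2 was thus the highest of Spry1, Spry2 and Spry4 in both groups, with 44.3 CPM per kb in OIR-Norm and 43.8 in OIR-CIH. Between phosphatases, Dusp5 exceeded Dusp1 in every library. These are levels in a whole tissue, in which fewer cells of a type and less RNA per cell cannot be told apart.

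The genes varied together in one library. Within OIR-Norm, replicate 3 had the lowest value for 9 of the 10 genes, all but Dusp4, whose lowest value was in replicate 2. Over all genes tested replicate 3 was the lowest of its group for 31.4%, and over the 12059 genes with a mean of at least 5 CPM for 30.1%. On the log2(CPM + 0.5) scale the 10 genes lay a median of 0.17 below the mean of their group in this library (-0.17), where the genes above 5 CPM had a median of 0.009. Scaling by the median of ratios left the count at 9 of 10. The low values were not particular to the 10 genes. Each of the 6 lists of other pathway genes described below also had its lowest OIR-Norm sum in replicate 3. For relatives of the 10 genes the sum was 437 CPM against 516 and 479 CPM in replicates 1 and 2. For growth factor receptors it was 670 CPM against 730 and 798 CPM, and for the core cascade 1955 CPM against 2005 and 1992 CPM. Within OIR-CIH, replicate 2 was the lowest for 6 of the 10, with a median of -0.05. This pattern was noticed in the data and no test was made of it.

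**Figure D3:**
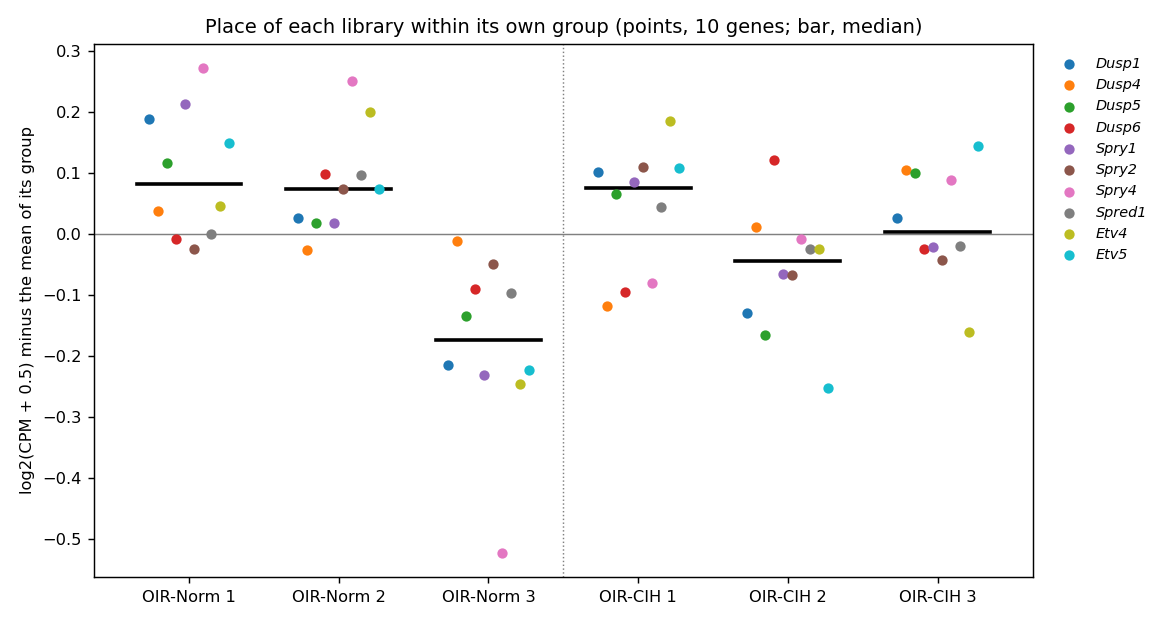
Place of each library within its own group, as log2(CPM + 0.5) minus the mean of the group, with one coloured point per gene and a bar at the median of the 10 genes. OIR-Norm replicate 3 has a median of -0.17 and all 10 of its points below 0, and the medians of the other 5 libraries lie between -0.05 and 0.08.

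The fitted differences between groups moved with that library. Without OIR-Norm replicate 3 the log2 fold change was 0.27 for Dusp1, -0.21 for Spry1 and -0.12 for Etv5, and the median of the 10 was -0.12 in place of -0.05. Without OIR-Norm replicate 2 the median was 0.01, with 6 of the 10 above 0. None of the 10 was called in any fit that left out a library. The same library was the lowest of OIR-Norm for the summed endothelial markers (49.9 CPM against 70.9 and 111.0), pericyte markers (92.1 against 144 and 218), astrocyte markers (194 against 239 and 242), microglia markers (103 against 121 and 115), Müller markers (3530 against 3938 and 3843), retinal pigment epithelium markers (538 against 728 and 588) and lens markers (27.0 against 32.7 and 582). For ganglion cell markers it was the highest (1040 CPM against 942 and 969). For rod markers (48915 CPM against 60051 and 46006) and bipolar markers (1167 against 1160 and 1393) it was neither. Rlbp1 is on both the Müller and the pigment epithelium list and gave 389 of the 538 CPM of the latter in this library. The part of these markers in the result was not tested.

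The wider pathway was read in 6 lists of 91 genes, of which 90 were tested; Spry3 was not analysed here. In the edgeR fit 2 of the 90 were called, both lower in OIR-CIH, where 0.215% of all genes tested were called lower. DESeq2 called the same 2, Fgf2 and Nr4a1. The lists were written with the study's own table of changed genes known, and that table holds both. These counts are therefore no independent evidence about the pathway. The list median was 0.04 for the relatives of the feedback genes, -0.46 for other inducible feedback and output genes, -0.40 for immediate-early genes, -0.06 for the core cascade, -0.11 for growth factor ligands and -0.15 for growth factor receptors. Other inducible feedback and output genes and immediate-early genes thus had lower medians than the 10 feedback genes. The relatives had a higher one, and these differences between lists were not tested. For other inducible feedback and output genes the OIR-Norm sum was highest in replicate 2, at 256 CPM against 234 and 205 CPM in replicates 1 and 3. Without that library the log2 fold change was -0.40 for Il17rd and -0.96 for Lif, against -0.55 and -2.27 with it. The median of the list without it was not computed.

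Among the ligands 11 of 15 had fitted values below 0, and 1 was called. Fgf2, basic fibroblast growth factor, which binds FGF receptors on glia, neurons and endothelium, read 57.3, 49.4 and 47.3 CPM in OIR-CIH and 109.5, 94.5 and 111.0 CPM in OIR-Norm. It fell by 1.03 on the log2 scale (SE 0.09, adjusted p from edgeR 0.00011), and every OIR-CIH library lay below every OIR-Norm library. Its antisense gene Fgf2os had 176 to 323 counts and a log2 fold change of -0.61 (SE 0.16; adjusted p from edgeR 0.169), and how reads of the pair were kept apart is not stated. Fgf1, the acidic family member, also had groups apart, with up to 43.7 CPM in OIR-CIH and at least 47.2 CPM in OIR-Norm, but was not called (log2 fold change -0.23, adjusted p from edgeR 0.268). Pgf, a ligand of Flt1, read 1.84, 1.70 and 1.80 CPM in OIR-CIH and 2.73, 4.49 and 1.76 CPM in OIR-Norm, with overlapping groups (log2 fold change -0.74, adjusted p from edgeR 0.315). Without OIR-Norm replicate 2, its highest library, the log2 fold change of Pgf was -0.33.

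None of the 15 receptors was called, and 12 had fitted values below 0. Pdgfra, the receptor that retinal astrocytes carry, read 27.6 to 32.8 CPM in OIR-CIH and 35.7 to 52.0 CPM in OIR-Norm (log2 fold change -0.46, adjusted p from edgeR 0.196). By DESeq2 the adjusted p of Pdgfra was 0.0367, and by edgeR with genes down to 1 count it was 0.0221, in both with a fold change under the minimum for a call; without OIR-Norm replicate 2 the log2 fold change was -0.28. Ntrk2, the receptor of brain-derived neurotrophic factor, read 82.1 to 106.1 CPM and 109.6 to 124.8 CPM (-0.30, adjusted p 0.234). Flt1, a receptor of vascular endothelial growth factor, had overlapping groups and a log2 fold change of -0.24, or -0.13 without OIR-Norm replicate 2. Astrocyte markers summed to 132 to 140 CPM in OIR-CIH and 194 to 242 CPM in OIR-Norm, with 4 of 5 below 0 and Gfap called lower, and their part in the values of Pdgfra was not tested; Pdgfra itself is on that list.

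The 25 genes of the core cascade run from Grb2 and Sos to Raf, MEK, ERK and the RSK kinases. They were split, with 13 below and 12 above 0, and 0 were called by edgeR and 0 by DESeq2. At an unadjusted p under 0.05 the edgeR fit held 3 of the 25, beside 13.2% of all genes tested. The fitted values of the 25 lay between -0.29 and 0.22. Nras read 36.1 to 39.9 CPM in OIR-CIH and 39.9 to 44.9 CPM in OIR-Norm. Ksr2, a scaffold of the cascade, read 16.4 to 21.4 CPM and 21.8 to 27.4 CPM. Rps6ka3, which encodes an RSK kinase downstream of ERK, read 53.2 to 57.4 CPM and 61.4 to 66.2 CPM. These 3 had log2 fold changes of -0.18, -0.29 and -0.19, and that of Ksr2 was -0.19 without OIR-CIH replicate 1 and -0.18 without OIR-Norm replicate 2.

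Of 14 immediate-early genes 12 had fitted values below 0 and 1 was called. Nr4a1, an orphan nuclear receptor induced within the hour by many signals, read 46.1, 42.2 and 44.9 CPM in OIR-CIH and 74.8, 70.8 and 55.8 CPM in OIR-Norm. It fell by 0.60 on the log2 scale (SE 0.10, adjusted p from edgeR 0.0211), and its groups did not overlap. This call was lost in 5 of the 6 fits that left out a library (adjusted p from edgeR 0.0621 to 0.0979) and was kept without OIR-Norm replicate 3. Egr2, a zinc finger factor, read 0.69 to 1.07 CPM in OIR-CIH and 1.36 to 2.42 CPM in OIR-Norm (adjusted p from edgeR 0.227). Jun was on the other side of 0, with 78.3 to 86.1 CPM in OIR-CIH and 63.9 to 71.4 CPM in OIR-Norm (log2 fold change 0.26, adjusted p from edgeR 0.208). As for the feedback genes, the summed level of the list in OIR-Norm replicate 3, 420 CPM, was below that of the other 2 OIR-Norm libraries, 561 and 515 CPM, and it was near the 425 to 465 CPM of OIR-CIH. Without that library Fos (-0.64), Junb (-0.51) and Egr1 (-0.73), which were named after their values were seen, were called lower as well.

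In the list of other inducible feedback and output genes 9 of 12 lay below 0, 0 were called by edgeR, and DESeq2 also called 0. At an unadjusted p under 0.05 the edgeR fit held 7 of the 12, 5 of them lower, beside 13.2% of all genes tested. Il17rd, a membrane inhibitor of FGF signalling also called Sef, read 4.16, 4.68 and 5.53 CPM in OIR-CIH and 6.56, 8.42 and 6.19 CPM in OIR-Norm (log2 fold change -0.55, SE 0.17, adjusted p from edgeR 0.229). Lif, a cytokine that Müller glia make under stress, read 1.10, 1.70 and 0.82 CPM in OIR-CIH and 2.73, 12.7 and 1.92 CPM in OIR-Norm, so that most of its OIR-Norm mean came from replicate 2 (log2 fold change -2.27, adjusted p from edgeR 0.173). Without that library the log2 fold change of Lif was -0.96 (adjusted p from edgeR 0.426). Lif was called without OIR-Norm replicate 3 (adjusted p from edgeR 0.0365) and with genes down to 1 count (0.000842). Ier3 stood with Dusp1 and Jun above 0, at 81.3 to 105.4 CPM in OIR-CIH and 69.1 to 80.8 CPM in OIR-Norm (log2 fold change 0.28, adjusted p from edgeR 0.276), and its log2 fold change was 0.19 without OIR-CIH replicate 1.

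Of 9 measured relatives of the 10 genes 3 lay below and 6 above 0. At an unadjusted p under 0.05 the edgeR fit held 2 of the 9, beside 13.2% of all genes tested. By adjusted p and fold change 0 were called by edgeR, and DESeq2 also called 0. Spry3, the relative that was not analysed here, is in the study's own table of changed genes, so the 0 does not cover it. Dusp10, a phosphatase of JNK and p38, read 17.6, 19.2 and 19.3 CPM in OIR-CIH and 14.4, 15.8 and 13.6 CPM in OIR-Norm. Its log2 fold change of 0.36 (SE 0.10, adjusted p from edgeR 0.213) was close to that of Dusp1, and its groups did not overlap. Dusp16, which also acts on JNK, had a log2 fold change of -0.12. Spred3 had 16.4 to 21.3 CPM in OIR-CIH and 21.0 to 31.7 CPM in OIR-Norm, with a log2 fold change of -0.43 and an adjusted p from edgeR of 0.276, and its log2 fold change was -0.26 without OIR-Norm replicate 2.

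**Figure D4:**
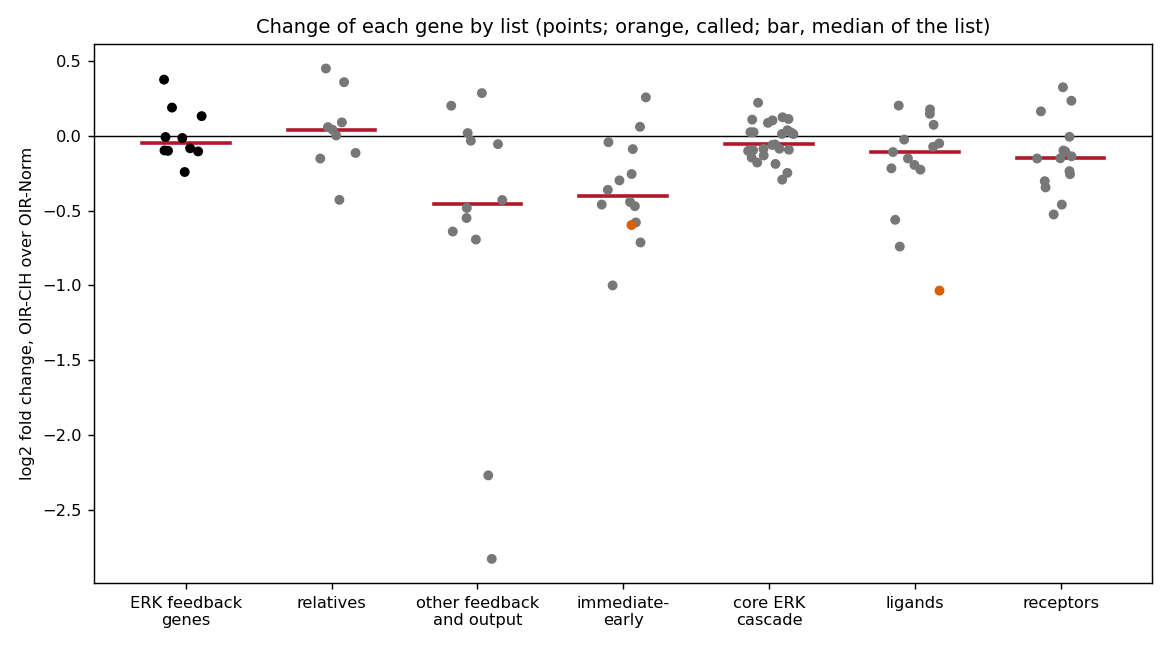
Log2 fold change of OIR-CIH over OIR-Norm from edgeR for each gene, by list, with called genes in orange and the median of the list as a bar. The 10 feedback genes centre on -0.05 and the core cascade on -0.06, while immediate-early genes centre on -0.40 and other feedback and output genes on -0.46. The last of these lists had its highest OIR-Norm sum in replicate 2, and its median without that library was not computed. The 2 called genes are Nr4a1 and Fgf2.

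Markers of cell types that the retina holds differed in their values. Rod photoreceptor markers summed to 52379 to 60626 CPM in OIR-CIH and 46006 to 60051 CPM in OIR-Norm, all 8 above 0 and 0 called. Müller glia markers summed to 3587 to 4324 CPM in OIR-CIH and 3530 to 3938 CPM in OIR-Norm, with 4 of 9 above 0 and 0 called. Endothelial markers summed to 52.7 to 78.6 CPM and 49.9 to 111.0 CPM, with 6 of 8 below 0 and 0 called. Pericyte and smooth muscle markers summed to 83.3 to 128 CPM and 92.1 to 218 CPM, all 6 below 0 and 0 called. Microglia markers summed to 86.1 to 100.5 CPM and 103 to 121 CPM, with 7 of 8 below 0 and 0 called. All listed markers of these cells were detected, none of the lists was at 0, and their part in the levels of the feedback genes was not tested.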

How the data were processed

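Retinal RNA of 3 OIR-CIH and 3 OIR-Norm libraries was sequenced. The authors aligned the reads with STAR 2.7.9a, extracted raw counts per gene with its gene counting option and deposited these counts without normalization. Their methods name the genome of Ensembl release 105 and the labels GRCm38; the strand column kept is not given in the sources used here. A sample sheet that was deposited with the counts was not used here, since the labels hold the same groups.

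Only genes whose counts summed to 10 or more were tested. Library sizes were corrected by TMM, levels given as CPM, and the counts tested with the quasi-likelihood test of edgeR 4.0.16 (R 4.3.3) over all genes, with Benjamini-Hochberg adjustment. The threshold for a call was 0.05 on the adjusted p and 0.5 on the size of the log2 fold change. SE and 95% intervals were derived from the same fit. The SE is the size of the log2 fold change over the square root of the test's F statistic. The intervals use a t quantile with that SE, so both are approximate. Alternatives were DESeq2 1.42.0, limma 3.58.1 (trend and voom), another scaling, other filters, a robust dispersion, no minimum fold change, a block on the replicate number and leaving out each library. No pair of libraries within a group differed by as little as sampling noise.

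Symbols, positions and exon lengths came from GENCODE M21 (GRCm38), by gene identifier; 127 identifiers without a symbol, 0.0212% to 0.037% of counts, were tested but not named. Spry3 could not be matched by symbol and was not analysed here. Promoters are those of RefSeq. The 10 genes, the pathway and marker lists and the motifs were chosen with earlier results of these data known. Named genes are the 10 genes and, of each pathway list, every called gene and the 3 with the lowest p; markers were named only where a library stood apart. Gfap, Fos, Junb, Egr1, Pdgfb, Fosl1 and Rlbp1 fall outside this rule and were picked once their values were known. The total count per library, 26289905 to 38010151, sets the counting error, and an exact permutation test of 3 against 3 cannot give a p under 0.1.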

Additional observations from a re-analysis of the deposited data

How the results depend on the processing

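None of the 10 feedback genes was called in any of the 15 alternatives. Dusp1 came closest, with an adjusted p of 0.0863 where genes down to 1 count in all were included and 0.581 at most, when OIR-CIH replicate 1 was left out. The count of all genes called was 63 by edgeR, 135 by DESeq2 and 213 with genes down to 1 count. It was 35 with OIR-CIH replicate 1 left out and 104 with OIR-Norm replicate 3 left out, the lowest and highest such values; of the other pathway genes 2 were called, and 1 to 6 with a library left out. Fgf2 was called in all 15. Near 0 the sign depended on single libraries: over the fits with 1 library left out, the log2 fold change was -0.075 to 0.021 for Spry2, -0.21 to 0.013 for Spry1, -0.23 to 0.0041 for Etv4 and -0.12 to 0.11 for Etv5. Dusp5 (0.064 to 0.21), Dusp6 (-0.15 to -0.033), Spry4 (-0.47 to -0.11) and Spred1 (-0.15 to -0.052) kept their sign but moved by over 1.5 times. The replicate numbers did not pair the libraries (correlations of deviations 0.10, 0.10 and -0.18, and not every library was closest to its own number). A block on the replicate number gave 84 genes called, 0 of the 10 and 3 other pathway genes, with Lif added; Lif was also called with genes down to 1 count and without OIR-Norm replicate 3. The cause of these shifts was not tested. With 3 libraries a group, leaving out 1 library moved the median of the 10 genes to between -0.12 and 0.01.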

Other observations

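OIR-Norm replicate 2 stood apart from the other 5 libraries for several genes outside the 10, which were picked after their values were seen. The lens crystallin Cryaa read 173 CPM there and 4.39 to 30.0 CPM elsewhere. Lif read 12.7 CPM against 0.82 to 2.73 CPM, Pdgfb, a growth factor for pericytes, 12.3 CPM against 3.77 to 6.25 CPM, Fosl1, an AP-1 subunit, 1.09 CPM against 0 to 0.16 CPM, and the endothelial adhesion gene Pecam1 24.4 CPM against 8.32 to 12.5 CPM. The 10 feedback genes summed to 424 CPM in that library and to 420 and 419 CPM in OIR-CIH replicate 1 and OIR-Norm replicate 1.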
